A study of Homo sapiens with 18 samples.

Results

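The cells that lacked CD10 at their surface were compared between MC26, a line transformed by prolonged exposure to BMP2 and IL6, and MCF10A-CT, the matched line that was kept without these factors. The comparison rested on 4 of the 18 arrays of the series, 2 labelled MC26 CD10- and 2 labelled MCF10A-CT CD10-, and it took in all genes with a probe set, 1 probe set per gene. Of 19775 genes, the 12166 whose mean signal exceeded the median of all probe sets were tested. MCF10A is an immortalized, non-tumorigenic human mammary epithelial line, and MC26 was derived from it without prior sorting. All cells shared a medium with serum, insulin, hydrocortisone, cholera toxin and EGF, were detached with trypsin, stained and sorted on membrane CD10. MC26 cells were also kept in IL6 at 10 ng/ml and in BMP2, for which the labels give 5 ng/ml in one field and 10 ng/ml in another, so the transformed state and the presence of the factors at harvest cannot be told apart. The labels call the replicates biological without saying what they share, and nothing says whether CD10- and CD10+ cells came from the same cultures, so p-values measure the spread between these arrays. Each line was 1 derivation, and the data cannot say how another derivation would behave.

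CD10 is a membrane metallopeptidase, encoded by MME, that cleaves peptides outside the cell and marks basal and myoepithelial cells as well as some immature cells of the mammary epithelium. BMP2 binds BMP receptors that phosphorylate SMAD proteins and induces ID genes, while IL6 acts through IL6R and IL6ST on STAT3 and induces SOCS3. Dividing cells switch on one group of genes at the entry into S phase, for DNA replication, and a later group for mitosis, and resting cells keep both groups low.

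The sort could be checked on MME itself, whose probe set lay near background in CD10- cells. Its intensity was 9.73 and 11.3 in MCF10A-CT and 27.8 and 6.39 in MC26 among CD10- cells, against 48.3 and 65.0 in CD10+ MCF10A-CT and 69.8 and 90.7 in CD10+ MC26. The CD10- arrays of both lines thus lay below the CD10+ arrays, and they overlapped each other (log2 difference 0.35, SE 0.64, adjusted p = 0.743). All 8 measured mammary epithelial markers exceeded background in both groups, with summed intensities of 24280 to 29264 in MCF10A-CT and 21732 to 25980 in MC26. Of the markers of other cell types, 3 of 8 for fibroblasts (summed 237 to 295 in MCF10A-CT, 356 to 362 in MC26), 3 of 6 for leukocytes (406 to 521 and 940 to 1456) and 2 of 7 for endothelium (70.9 to 104 and 79.1 to 96.0) exceeded it, and PTPRC, CD3E, PDGFRA, PDGFRB, CDH5 and VWF lay near background in both groups. The rise in the leukocyte sum lay in LCP1, an actin-bundling protein also made by epithelial tumor cells. That in the fibroblast sum lay mostly in FAP (mean 63.9 in MCF10A-CT and 221 in MC26), while COL1A1 was lower in MC26 (160 and 91.7). Replicates correlated at 0.949 in MCF10A-CT and 0.976 in MC26, while arrays of different lines correlated at 0.882 to 0.936 over the genes tested.

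In CD10- cells, the levels of 2431 genes differed between the lines, which was 20% of the genes tested (limma, Benjamini-Hochberg adjusted p under 0.05, 2 arrays per line). Of these, 1635 were higher in MC26 (13.4% of genes tested) and 796 lower (6.54%). At least a 2-fold difference was seen for 1066 higher and 575 lower genes. In all 2431 the arrays of one line lay apart from those of the other. With 2 arrays per line this largely follows from passing the test and adds no evidence. The median difference over all genes was 0.13 on the log2 scale, so that the balance between rises and falls depended on the scaling of the arrays. After quantile normalization, which moved that median to 0.00, 1363 genes were higher and 1368 lower, and after centering each array on its tested genes (median -0.03) the counts were 1485 and 1310. The counts also rested on single arrays. With the CD10- arrays of MCF10A-CT called CT1 and CT2 and those of MC26 called MC1 and MC2, without CT2 they fell to 395 higher and 150 lower, without MC1 to 396 and 322, without MC2 to 762 and 296, whereas without CT1 they were 2081 and 929.

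The gene lists that differed most were those of cell division. In the G1-S list, which holds replication and nucleotide synthesis genes, 41 of 44 tested members were higher in MC26 and none was lower, with a median log2 difference of 2.33. In the G2-M list, which holds spindle, kinetochore and mitotic kinase genes, 63 of 64 were higher and none was lower, with a median of 2.07. These medians stood against 0.13 over all genes, and the shares of 93.2% and 98.4% against 13.4%. The mean log2 level of the G1-S list was 6.56 and 7.52 in the MCF10A-CT arrays and 9.37 and 9.43 in the MC26 arrays, and that of the G2-M list was 7.35 and 7.63 against 9.36 and 9.62. Leaving out any one of the 4 arrays left 52 to 62 G2-M members called higher, but the G1-S count fell to 22 without CT2, against 30 without MC1, 34 without MC2 and 41 without CT1. In bulk RNA, fewer dividing cells and less of these transcripts per cell cannot be told apart.

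**Figure D1:**
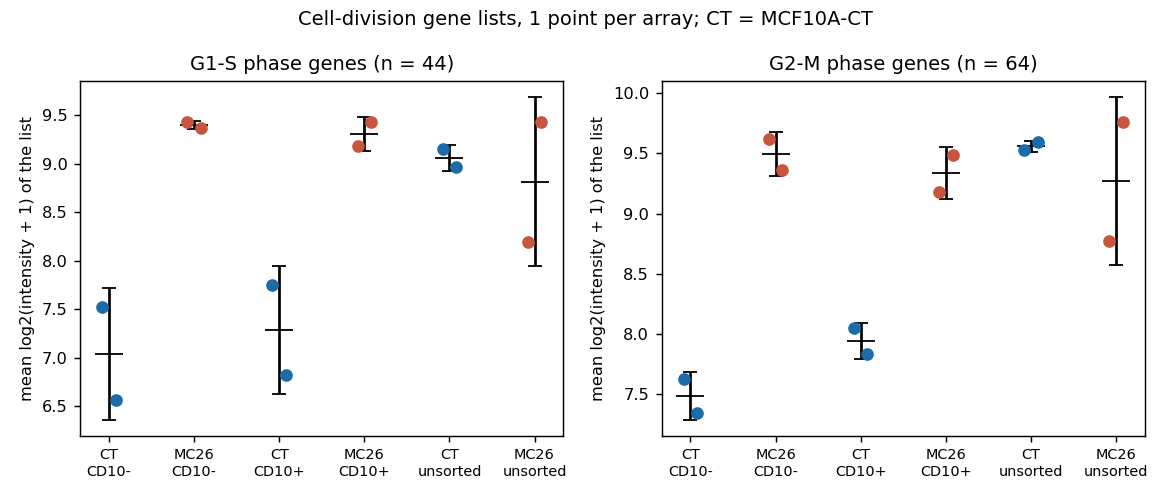
Mean log2(intensity + 1) of the tested G1-S genes (left, n = 44) and G2-M genes (right, n = 64), 1 point per array, with the mean and SD of each group of 2 arrays; CT stands for MCF10A-CT, blue points for MCF10A-CT and red points for MC26. In CD10- cells the MCF10A-CT arrays lie at 7.35 and 7.63 and the MC26 arrays at 9.36 and 9.62 for the G2-M genes, while the 2 lines overlap among unsorted cells.

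Replication genes were among the largest single increases. CDC45, part of the helicase that opens DNA at replication forks, had intensities of 59.3 and 7.0 in MCF10A-CT and 538 and 345 in MC26. Both MC26 arrays lay far above both MCF10A-CT arrays, which themselves differed widely (log2 difference 4.30, SE 0.64, adjusted p = 0.000853). The CT2 value of CDC45 lay below background, so the size of this difference depends on the pseudocount. CDC6, which licenses replication origins, was measured at 105 and 36.6 in MCF10A-CT and 766 and 764 in MC26 and RRM2, a subunit of ribonucleotide reductase, at 464 and 156 in MCF10A-CT and 3574 and 3329 in MC26. These values placed CDC6 12.2-fold and RRM2 12.8-fold higher in MC26 (adjusted p = 0.000592 and 0.00238), folds being taken on the log2(intensity + 1) scale. TYMS, thymidylate synthase, stood at 745 and 399.7 in MCF10A-CT and 3278 and 3164 in MC26, which was 5.89-fold higher (adjusted p = 0.000379). RFC2, a clamp loader subunit, and TK1, thymidine kinase, were 5.01-fold and 5.88-fold higher. MCM10, another initiation factor, showed the largest increase of genes with a mean above background in both lines. Its intensities were 79.1 and 6.99 in MCF10A-CT and 543 and 545 in MC26. Its CT2 value lay below background, so the size of the rise depends on the pseudocount. CT2 was far dimmer than CT1, and the log2 difference of 4.43 (adjusted p = 0.00563) was no longer called without CT2 (adjusted p = 0.0925). Only 3 G1-S members were not called, with log2 differences of 0.57 for RFC5, 0.57 for UNG and 0.53 for E2F1.

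Mitotic genes differed less per gene but with less spread. HMMR, which organizes the spindle, had intensities of 375 and 210.1 in MCF10A-CT and 1702 and 1324 in MC26 (log2 difference 2.41, SE 0.26, adjusted p = 0.000247). CEP55, needed for the last cut between daughter cells, was measured at 266 and 133 in MCF10A-CT and 1849 and 1499 in MC26 (log2 difference 3.14, SE 0.37, adjusted p = 0.000288). NUF2, a kinetochore subunit that binds microtubules, lay at 166 and 147 in MCF10A-CT and 705 and 691 in MC26. In each of the 3 genes both MC26 arrays exceeded both MCF10A-CT arrays by a wide margin, and NUF2 was 4.45-fold higher (adjusted p = 0.000262). PRC1, which bundles microtubules between separating chromosomes, rose from 428 and 373 to 1979.5 and 1744 (4.64-fold, adjusted p = 0.000446). CDC20, the activator of the anaphase-promoting complex, KIF15, a spindle motor, and TPX2, an activator of Aurora A, were 5.31-fold, 5.82-fold and 3.92-fold higher. The calls of all these mitotic genes held without any one of the 4 arrays. CDC25B, a phosphatase that activates mitotic CDK, was the single G2-M member that was not called (log2 difference -0.52, adjusted p = 0.135). Part of the mitotic genes belong to ENI10, a signature that the study derived with the sorted MCF10A-CT arrays used here, and which is therefore not independent of them. Its genes were chosen as higher in CD10+ than in CD10- MCF10A-CT cells. This choice favors low values in CD10- MCF10A-CT arrays and hence higher values in MC26. Of 152 tested ENI10 members, 74 were higher and 19 lower (48.7% and 12.5%). Of the 97 left after setting aside the genes listed for cell division, 20 were higher and 18 lower (20.6% and 18.6%). These 97 still held SHCBP1, DEPDC1 and MCM8, which are grouped with mitotic or replication genes below. Over all genes these shares were 13.4% and 6.54%. The 22 G2-M genes outside ENI10 showed 21 higher and none lower.

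Promoters of the called cell-division genes are shown because transcription in the S-phase wave is classically controlled through E2F sites and in the mitotic wave through CCAAT boxes and CHR elements. The 250 bases before each RefSeq gene start (GRCh38.p14) were searched on both strands for CCAAT, for the CHR as TTTGAA or TTCGAA, and for an E2F site as TTTGGCGC, TTTCGCGC, TTTCCCGC or TTTGCCGC, no one of which contains another. Matches in either orientation are in capitals in the windows of the 4 G2-M genes of smallest p and of TYMS, the G1-S gene of smallest p, each written 5′ to 3′ on the strand of the gene.
HMMR: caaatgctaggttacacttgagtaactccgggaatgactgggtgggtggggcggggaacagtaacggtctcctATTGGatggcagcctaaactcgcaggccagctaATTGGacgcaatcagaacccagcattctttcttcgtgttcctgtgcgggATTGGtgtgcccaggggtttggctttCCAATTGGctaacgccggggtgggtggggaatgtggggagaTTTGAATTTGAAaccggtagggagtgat
CEP55: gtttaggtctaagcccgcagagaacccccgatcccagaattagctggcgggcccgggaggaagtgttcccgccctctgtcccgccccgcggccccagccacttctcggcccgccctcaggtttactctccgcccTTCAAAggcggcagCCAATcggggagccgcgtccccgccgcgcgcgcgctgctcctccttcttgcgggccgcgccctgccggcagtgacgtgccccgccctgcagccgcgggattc
PRC1: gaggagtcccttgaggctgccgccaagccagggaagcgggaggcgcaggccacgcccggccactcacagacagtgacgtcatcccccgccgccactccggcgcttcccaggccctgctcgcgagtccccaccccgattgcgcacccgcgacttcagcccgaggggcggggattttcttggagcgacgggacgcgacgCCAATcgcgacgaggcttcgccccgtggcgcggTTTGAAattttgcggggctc
NUF2: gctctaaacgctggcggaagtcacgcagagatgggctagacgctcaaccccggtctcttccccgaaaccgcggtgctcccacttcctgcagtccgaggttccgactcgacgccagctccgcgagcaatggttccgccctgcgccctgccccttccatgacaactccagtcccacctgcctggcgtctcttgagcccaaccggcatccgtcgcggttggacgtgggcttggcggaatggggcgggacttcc
TYMS: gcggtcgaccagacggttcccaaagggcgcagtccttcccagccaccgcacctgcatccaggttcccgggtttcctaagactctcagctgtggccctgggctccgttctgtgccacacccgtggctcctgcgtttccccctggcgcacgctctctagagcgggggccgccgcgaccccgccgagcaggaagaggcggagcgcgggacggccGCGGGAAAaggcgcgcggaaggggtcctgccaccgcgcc
These windows lie at chr5:163460382-163460631 on the plus strand for HMMR, chr10:93496362-93496611 on the plus strand for CEP55, chr15:90994536-90994785 on the minus strand for PRC1, chr1:163321704-163321953 on the plus strand for NUF2 and chr18:657403-657652 on the plus strand for TYMS. HMMR, CEP55 and PRC1 held both CCAAT and CHR letters, TYMS held an E2F match, and the NUF2 window held none of the 3 motifs. Of the 63 called G2-M genes, 54 had a window, and of their 65 windows 70.8% held CCAAT, 49.2% the CHR and 6.15% the E2F letters. Of the 42 windows of the 33 matched G1-S genes these shares were 59.5%, 4.76% and 31.0%. Over all 14461 windows of tested genes they were 33.1%, 10.6% and 4.16%, and over all 35116 RefSeq windows they reached 32.0%, 14.3% and 2.79%.

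Among brakes on the cell cycle, CDKN1C was lower in CD10- MC26 cells, while the list it belongs to had members called both ways. CDKN1C, an inhibitor of cyclin-dependent kinases, had intensities of 516 and 394 in MCF10A-CT and 50.0 and 41.5 in MC26. The arrays of the lines lay far apart (log2 difference -3.28, SE 0.57, adjusted p = 0.00195), and the call held without any one array. GDF15, a secreted p53 target, was 14.0-fold lower, but its MCF10A-CT arrays stood at 432 and 3041 and the call was lost without CT2 (0.299), MC1 (0.104) or MC2 (0.134), where the adjusted p without that array stands in brackets. In the list of CDK inhibitors, G1 cyclins and p53 targets, 3 of 24 tested members were higher and 4 lower, with a median of -0.04. These shares of 12.5% and 16.7% stood against 13.4% and 6.54% of all genes. The higher members were CDK4, CDK6 and PLK2 (log2 differences 0.69, 0.76 and 0.84), and the lower ones also took in TP53INP1 and SESN1 (-1.58 and -1.38). Calls were lost for CDK4 without CT2 (0.169), MC1 (0.118) or MC2 (0.0807), CDK6 without CT1 (0.0502), CT2 (0.0807) or MC1 (0.167), PLK2 without CT1 (0.1), CT2 (0.113), MC1 (0.0703) or MC2 (0.209), TP53INP1 without MC1 (0.0635) and SESN1 without CT2 (0.162), MC1 (0.152) or MC2 (0.0528).

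Several genes of epithelial junctions were lower in CD10- MC26 cells. Of 21 tested members of the desmosome, tight junction and polarity list, 6 were lower and none was higher, a share of 28.6% against 6.54% of all genes, with a median of -0.45. CLDN1, a strand-forming claudin of tight junctions, had intensities of 362 and 552 in MCF10A-CT and 47.5 and 56.7 in MC26. Neither MC26 array came near the MCF10A-CT arrays (log2 difference -3.08, SE 0.36, adjusted p = 0.000288). CLDN7, a claudin of luminal and glandular epithelium, lay at 589 and 733 in MCF10A-CT and 162 and 176 in MC26 (3.86-fold lower, adjusted p = 0.00142), and OCLN, occludin, was 4.26-fold lower, a call that was lost without CT2 (adjusted p = 0.0651). PARD6B, a polarity factor, was 3.59-fold lower, and its call was lost without CT2 (0.058) or MC1 (0.0659). PKP2 and JUP, plaque proteins of desmosomes, had log2 differences of -0.74 and -0.70, with calls that were lost for PKP2 without CT1 (0.244), MC1 (0.186) or MC2 (0.111) and JUP without CT2 (0.428), MC1 (0.0783) or MC2 (0.249). PPL, the cornified envelope protein periplakin, fell from 329 and 286 to 30.8 and 30.0 (9.81-fold, adjusted p = 0.000488).

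The luminal genes that differed were lower in MC26, while basal genes went both ways. CDH1, E-cadherin, had intensities of 1569.8 and 1669 in MCF10A-CT and 1016 and 777 in MC26, with no overlap (log2 difference -0.86, SE 0.24, adjusted p = 0.0236), and lost its call without CT2 (0.147), MC1 (0.0526) or MC2 (0.167). Of 19 tested luminal genes, 4 were lower (21.1% against 6.54% of all genes) and none was higher (median -0.54), namely CLDN7, CDH1, the epithelial transcription factor ELF3 and the luminal regulator GATA3. ELF3 lay at 50.0 and 236 in MCF10A-CT and 13.1 and 16.6 in MC26, and GATA3 was 1.77-fold lower, the ELF3 call being lost without CT2 (0.25), MC1 (0.107) or MC2 (0.0644) and the GATA3 call without CT2 (0.338) or MC1 (0.261). In the basal and myoepithelial list, 2 of 15 were higher and 2 lower (13.3% each, against 13.4% and 6.54% of all genes). KRT14, a basal keratin, rose from 1227 and 754 to 3035 and 3274 (log2 difference 1.71, SE 0.56, adjusted p = 0.0419), a call lost after quantile normalization (adjusted p = 0.0691) and without CT2 (0.273), MC1 (0.144) or MC2 (0.153). KRT15, a keratin of basal progenitors, fell 11.4-fold, from 1344 and 213 to 45.2 and 46.8, with a wide spread between the MCF10A-CT arrays (adjusted p = 0.00638, and 0.0504 without MC1). KRT5, the partner of KRT14, stood at 5493 and 5092 in MCF10A-CT and 4702 and 4699 in MC26 (log2 difference -0.17, SE 0.20, adjusted p = 0.597).

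Mesenchymal genes showed no common direction. Of 22 tested members, 2 were higher and 3 lower (9.09% and 13.6%, median -0.39), against 13.4% and 6.54% of all genes. LOX, a collagen cross-linking enzyme, lay at 493 and 805 in MCF10A-CT and 160.3 and 104 in MC26 (4.84-fold lower, adjusted p = 0.000769), and S100A4, a calcium-binding protein often raised in motile cells, at 3014 and 2416 in MCF10A-CT and 501 and 413 in MC26 (5.92-fold lower, adjusted p = 0.000853). The arrays of the lines were apart in both genes, and both calls held without any one array. SNAI2, a repressor of E-cadherin, was 2.04-fold higher (adjusted p = 0.011), a call lost without CT2 (0.102) or MC1 (0.125). VIM, vimentin, overlapped between the lines at 5812 and 7639 in MCF10A-CT and 5918 and 4899 in MC26 (log2 difference -0.31, SE 0.17, adjusted p = 0.21). Among 16 tested integrins and matrix receptors, 6 were lower and none higher (37.5%, median -0.16). The syndecan SDC4 and the integrin subunit ITGB8 were 2.65-fold and 2.58-fold lower, with calls that held without any one array, and ITGA10, ITGB4, ITGB5 and the hyaluronan receptor CD44 had log2 differences of -2.40, -1.46, -0.86 and -0.57. The test was no longer passed by ITGA10 without CT2 (0.096), MC1 (0.0884) or MC2 (0.0537), ITGB4 without CT2 (0.189) or MC2 (0.125), ITGB5 without CT2 (0.326), MC1 (0.0549) or MC2 (0.192) and CD44 without CT2 (0.386), MC1 (0.147) or MC2 (0.159). In the metalloproteinase list, 1 of 11 was higher (ADAMTS1, log2 difference 2.08) and 3 were lower (MMP28 -1.87, TIMP2 -0.99 and TIMP1 -0.75). The shares were 9.09% higher and 27.3% lower. These calls were lost for ADAMTS1 without CT2 (0.0649) or MC1 (0.118), MMP28 without CT2 (0.111), MC1 (0.0629) or MC2 (0.0585), TIMP2 without CT2 (0.251) or MC2 (0.26) and TIMP1 without CT2 (0.194), MC1 (0.0793) or MC2 (0.113).

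**Figure D2:**
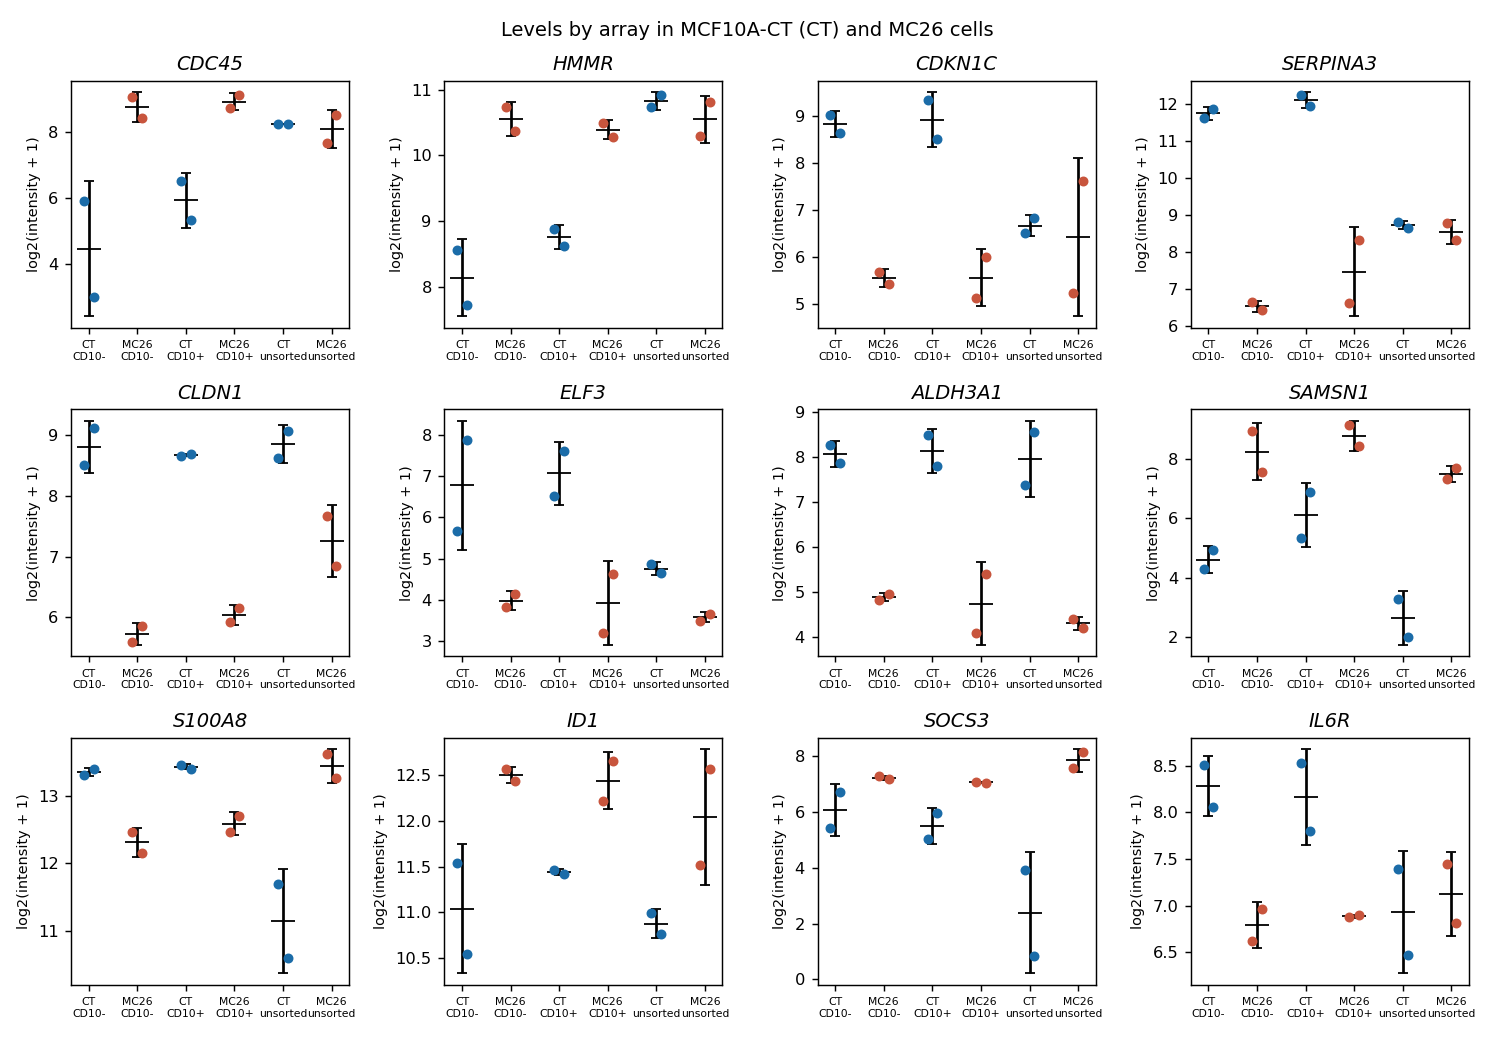
log2(intensity + 1) of 12 genes in each array of MCF10A-CT (CT, blue) and MC26 (red), for CD10-, CD10+ and unsorted cells, with the mean and SD of each group of 2 arrays. CDC45 and HMMR are higher, and CDKN1C, SERPINA3 and CLDN1 lower, in both CD10- MC26 arrays than in both CD10- MCF10A-CT arrays; in unsorted cells CDC45, HMMR and SERPINA3 overlap between the lines, while S100A8 is higher in MC26.

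Few genes of the BMP pathway differed between the lines, although MC26 medium held BMP2. Of 23 tested receptors, SMADs, targets and antagonists, 2 were higher and none was lower (8.70% against 13.4% of all genes), with a median of 0.16. ID1, a direct BMP target that blocks differentiation factors, had intensities of 2982 and 1489 in MCF10A-CT and 6059 and 5552 in MC26. Both MC26 arrays exceeded both MCF10A-CT arrays (log2 difference 1.46, SE 0.31, adjusted p = 0.00585), and the call was lost without CT2 (0.0992) or MC1 (0.0542). FSTL1, a secreted BMP antagonist, was 1.94-fold higher (adjusted p = 0.00977), and lost its call without CT1 (0.0609) or MC1 (0.0701). ID3 lay at 347 and 699 in MCF10A-CT and 1784 and 1613 in MC26, higher in both MC26 arrays but within the spread of this probe set over all arrays (log2 difference 1.78, SE 1.19, adjusted p = 0.309). ID2 overlapped, at 272 and 599 in MCF10A-CT and 209 and 819.8 in MC26 (adjusted p = 0.989). Among receptors, BMPR1B lay at 229.5 and 163 in MCF10A-CT and 153 and 177 in MC26 (log2 difference -0.23, SE 0.27) and BMPR2 at 429 and 297 in MCF10A-CT and 308 and 307 in MC26 (-0.21, SE 0.26), neither passing the test. SMAD6, an inhibitory SMAD induced by BMP, was too dim to be tested, at 7.03 and 7.65 in MCF10A-CT and 28.3 and 51.4 in MC26, and BMPR1A was not tested.

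The IL6 pathway genes that differed were lower in MC26. Of 24 tested receptors and STAT3 response genes, 5 were lower and none was higher (20.8% against 6.54% of all genes, median -0.16). IL6R, the receptor subunit that binds IL6, had intensities of 363 and 264 in MCF10A-CT and 97.4 and 124 in MC26, without overlap (log2 difference -1.49, SE 0.35, adjusted p = 0.00968), and lost its call without MC1 (adjusted p = 0.0892). LIFR, the receptor for LIF, was 3.89-fold lower (adjusted p = 0.00738, and 0.0638 without MC2). The transcription factors CEBPD and BCL6 were 2.50-fold and 4.0-fold lower, and the kinase PIM3 had a log2 difference of -1.08. With one array left out, calls ended for CEBPD without CT2 (0.104) or MC1 (0.0628), BCL6 without CT2 (0.248), MC1 (0.138) or MC2 (0.0556) and PIM3 without CT1 (0.0877), CT2 (0.157), MC1 (0.0983) or MC2 (0.197). IL6ST, the shared signal transducer, lay at 1297 and 1004 in MCF10A-CT and 1659 and 1424 in MC26 (adjusted p = 0.174) and STAT3 at 997 and 836 in MCF10A-CT and 918 and 1037 in MC26 (adjusted p = 0.824). SOCS3, the feedback inhibitor that STAT3 induces, stood at 41.9 and 104 in MCF10A-CT and 154 and 143 in MC26, higher in both MC26 arrays without passing the test (log2 difference 1.15, SE 0.70, adjusted p = 0.258).

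Several secreted defense proteins were lower in CD10- MC26 cells. SERPINA3, the acute phase antiprotease antichymotrypsin, showed the largest decrease of genes above background in both lines, with intensities of 3128 and 3750.0 in MCF10A-CT and 99.4 and 85.6 in MC26. It was 36.7-fold lower in MC26 (SE 0.51 on the log2 scale, adjusted p = 0.000147), a call that held without any one array. Of 10 tested acute phase and secretory defense genes, 4 were lower and none was higher (40% against 6.54% of all genes, median -0.84). The others were the calgranulin subunits S100A8, at 10164 and 10809 in MCF10A-CT and 5642 and 4571 in MC26, and S100A9, at 7289.5 and 8548 in MCF10A-CT and 4777 and 3611 in MC26, and S100P, at 537 and 672 in MCF10A-CT and 61.0 and 129.5 in MC26. They were 2.06-fold, 1.90-fold and 6.69-fold lower, and calls were lost for S100A8 without CT2 (0.101), MC1 (0.0518) or MC2 (0.108), S100A9 without CT1 (0.0568), CT2 (0.246), MC1 (0.0931) or MC2 (0.241) and S100P without CT2 (0.116) or MC1 (0.149). CHI3L1, a secreted chitinase-like glycoprotein, went from 512 and 399.9 in MCF10A-CT to 0.756 and 1.28 in MC26, where it lay near background. Its log2 difference of -7.82 (adjusted p = 0.000288) depended on the pseudocount and was -4.78 with 16 in place of 1 (adjusted p = 6.03e-06). In the complement list, 2 of 11 were higher and 3 lower (18.2% and 27.3%), against 13.4% and 6.54% of all genes. CFI, a protease that inactivates complement, rose from 49.0 and 53 to 288 and 238 (5.06-fold, adjusted p = 0.000254), while CFB and C3 were 2.98-fold and 2.21-fold lower. CLU, a chaperone that inhibits complement, had a log2 difference of -1.37. The calls depended on single arrays for CFB without CT1 (0.0699), CT2 (0.0654) or MC2 (0.161), C3 without CT2 (0.219), MC1 (0.0977) or MC2 (0.151) and CLU without CT1 (0.0756), CT2 (0.164) or MC2 (0.263). CD59, an inhibitor of the membrane attack complex, had a log2 difference of 0.93 by its brightest probe set and of -0.87 by the brightest probe set that is specific to it (adjusted p = 0.128), so its probe sets disagree.

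Cytokine targets were divided. In the TNF and NF-kB list, 6 of 29 were higher and 3 lower (20.7% and 10.3%, median 0.07). Over all genes the shares were 13.4% and 6.54%. CXCL3, a neutrophil chemokine, lay at 112 and 75.5 in MCF10A-CT and 1788 and 395 in MC26, with the MC26 arrays both above the MCF10A-CT arrays yet far from each other (log2 difference 3.18, SE 0.58, adjusted p = 0.00244), and the call held without any one array. CXCL1, a related chemokine, IL1B, the cytokine interleukin 1 beta, CSF3, the granulocyte growth factor, and PTGS2, the inducible cyclooxygenase, had log2 differences of 2.26, 2.38, 2.27 and 2.26. TNFAIP6, a hyaluronan-binding protein, and TNFAIP2 were lower, at -3.05 and -2.29. Calls were lost for CXCL1 without CT2 (0.254) or MC1 (0.22), IL1B without CT2 (0.0612) or MC1 (0.14), CSF3 without MC1 (0.0532), PTGS2 without MC1 (0.0614), TNFAIP6 without CT1 (0.0884) or MC1 (0.143) and TNFAIP2 without MC2 (0.0561). The probe sets of CXCL1 and CXCL3, close copies of each other, may not separate them fully. Of 48 tested interferon response genes, 11 were higher and 5 lower (22.9% and 10.4%, median 0.42). IFI35 rose from 25.1 and 12.9 to 114 and 78.6 (5.02-fold, adjusted p = 0.001), and HERC6, a ubiquitin ligase, and PLSCR1, a phospholipid scramblase, were 2.87-fold and 1.95-fold higher. IFITM1, which blocks virus entry, OAS1, a sensor of double-stranded RNA, and the GTPase GBP2 were lower, with log2 differences of -2.16, -1.42 and -1.64, while GBP1 and IFIT1 were higher, at 1.5 and 1.24. The interferon count rested on single arrays, with 3 members higher without CT2 or MC1, 7 without MC2 and 17 without CT1. Of 17 tested genes of MHC class I and antigen processing, 1 was higher and 4 lower (5.88% and 23.5%, median -0.36). Among the lower ones, the peptide-loading chaperone TAPBP and the proteasome activator PSME1 were 1.99-fold and 1.87-fold lower. Of the named interferon and antigen-processing genes, calls were lost for IFITM1 without CT1 (0.0604), CT2 (0.0846) or MC1 (0.172), OAS1 without CT1 (0.0917), CT2 (0.0574) or MC2 (0.16), GBP2 without CT2 (0.421) or MC2 (0.389), GBP1 without CT2 (0.158), MC1 (0.147) or MC2 (0.0732), IFIT1 without CT2 (0.257), MC1 (0.143) or MC2 (0.0931), TAPBP without CT2 (0.0949) or MC2 (0.1) and PSME1 without CT2 (0.11) or MC2 (0.112).

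Among growth factor pathways, the strongest differences were in single ligands and inhibitors. DKK1, a secreted inhibitor of Wnt signaling, had intensities of 199.6 and 122 in MCF10A-CT and 2708 and 2243 in MC26. The MC26 arrays lay far above the MCF10A-CT arrays (log2 difference 3.97, SE 0.57, adjusted p = 0.000647), and the call held without any one array. DKK1 belongs to ENI10, whose choice favors low values in these MCF10A-CT arrays. In the Wnt list, 3 of 15 were higher and 2 lower (20% and 13.3%), against 13.4% and 6.54% of all genes. The receptors FZD2 and FZD4 had log2 differences of -1.13 and -1.09, and the ubiquitin ligase ZNRF3, which removes Wnt receptors, of 0.99. In the EGF receptor list, 2 of 22 were higher and 2 lower (9.09% each). ERRFI1, a feedback inhibitor of the EGF receptor, fell from 2196 and 4235 to 609 and 653 (4.83-fold, adjusted p = 0.000288), with a call that held without any one array. The receptor ERBB3 was 2.91-fold lower, the ligand TGFA 2.52-fold higher (adjusted p = 0.0856 after quantile normalization), and the ligand NRG1, near background in MCF10A-CT, stood at 3.62 and 14.7 in MCF10A-CT and 142 and 31.0 in MC26. In the TGF-beta list, 4 of 19 were higher (CCN2, LTBP1, TGFBR2 and TGFBR1) and 3 lower (LTBP3, TGFB1 and TGFBR3), shares of 21.1% and 15.8%. CCN2, a matricellular target, rose 3.47-fold and the receptor subunit TGFBR2 1.78-fold. Both differing Notch genes of 14 were lower (14.3%), the targets HES1 (-1.03) and NRARP (-1.46). The test was no longer passed by FZD2 without CT2 (0.223) or MC2 (0.115), FZD4 without CT1 (0.0788), CT2 (0.0767), MC1 (0.0918) or MC2 (0.0899), ZNRF3 without CT2 (0.298), MC1 (0.152) or MC2 (0.0677), ERBB3 without MC2 (0.0761), TGFA without CT1 (0.152), CT2 (0.0625) or MC1 (0.366) and NRG1 without CT1 (0.101) or MC1 (0.203). Calls were also lost for CCN2 without CT2 (0.051) or MC2 (0.0625), LTBP1 without MC1 (0.0717), TGFBR2 without CT2 (0.0921) or MC1 (0.154), TGFBR1 without CT2 (0.207), MC1 (0.125) or MC2 (0.106), LTBP3 without CT2 (0.194) or MC2 (0.126), TGFB1 without CT2 (0.344), MC1 (0.0614) or MC2 (0.172), TGFBR3 without CT2 (0.17), MC1 (0.0817) or MC2 (0.0828), HES1 without CT2 (0.0645), MC1 (0.0573) or MC2 (0.0523) and NRARP without MC1 (0.0806).

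Several detoxifying enzymes were lower. ALDH3A1, an aldehyde dehydrogenase, had intensities of 307 and 231 in MCF10A-CT and 27.4 and 29.8 in MC26, the lines lying far apart (log2 difference -3.18, SE 0.49, adjusted p = 0.000968). Of 17 tested NRF2 targets and aldo-keto reductases, 5 were lower and 1 higher (29.4% and 5.88%, median -0.34), against 6.54% and 13.4% of all genes. Of the lower ones, TKT (log2 difference -0.99) changed sign without probe sets that may bind related transcripts, and its call was lost without CT2. AKR1C3, which reduces steroids and prostaglandins, lay at 3039 and 3834 in MCF10A-CT and 1224 and 804 in MC26 (3.44-fold lower, adjusted p = 0.000647), and AKR1C1, AKR1C2 and AKR1B10 had log2 differences of -1.14, -1.17 and -1.60, although probe sets of this family may share transcripts. With one array left out, calls ended for AKR1C1 without CT2 (0.158) or MC2 (0.129), AKR1C2 without CT2 (0.239) or MC2 (0.279) and AKR1B10 without CT1 (0.0903), CT2 (0.0927) or MC1 (0.211). The single higher member was SLC7A11, the cystine transporter, at 318 and 180.3 in MCF10A-CT and 759 and 707 in MC26 (3.05-fold, adjusted p = 0.00441, and 0.0735 without CT2). Stress response genes had 1 higher and 3 lower members of 25 (4% and 12%). The lower ones were ATF3, DDIT3 and NUPR1 at log2 differences of -2.18, -1.97 and -2.59. Among 20 immediate early and heat shock genes the median was -0.64, with FOSL1, an AP-1 subunit, 3.78-fold higher and KLF4 and JUND at log2 differences of -2.04 and -0.89. Of these stress genes, calls were lost for ATF3 without CT2 (0.149) or MC1 (0.0925), DDIT3 without CT2 (0.237) or MC2 (0.177), NUPR1 without CT2 (0.325), MC1 (0.11) or MC2 (0.133), KLF4 without CT2 (0.402), MC1 (0.234) or MC2 (0.0565) and JUND without CT2 (0.471), MC1 (0.276) or MC2 (0.0722). The respiratory chain showed 4 of 61 members lower and none higher (median -0.16), hypoxia and glycolysis genes 1 higher and 2 lower of 31, and cholesterol synthesis genes 1 lower of 19, shares of 6.56%, 6.45% and 5.26% lower against 6.54% of all genes.

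Several of the largest differences fell outside these lists, apart from SAMSN1, which is in ENI10. LAPTM5, a lysosomal membrane protein, CYP4X1, a cytochrome P450, and FXYD3, a regulator of the sodium pump, were 24.7-fold, 23.7-fold and 11.4-fold lower, with LAPTM5 intensities of 892 and 2167 in MCF10A-CT and 59.0 and 51.7 in MC26. ALOX15B, a lipoxygenase, CSGALNACT1, which starts chondroitin sulfate chains, and MIR200CHG, the host transcript of miR-200c, were 9.88-fold, 10.0-fold and 9.72-fold lower, the last call being lost without CT2 (adjusted p = 0.0787). AQP3, a glycerol and water channel, was 19.4-fold lower, with MCF10A-CT arrays at 1068 and 3218, and lost its call without CT2 (0.0602) or MC2 (0.0512). PCDH7, a protocadherin, CHRNA9, a nicotinic receptor subunit, and SAMSN1, an adaptor protein, were 13.8-fold, 13.3-fold and 12.5-fold higher, with PCDH7 intensities of 49.0 and 13.7 in MCF10A-CT and 484 and 288 in MC26. The keratinocyte envelope protein sciellin, SCEL, was near background in MCF10A-CT, at 0.468 and 1.26 in MCF10A-CT and 104 and 18.1 in MC26. ENTPD2, an enzyme that cleaves extracellular ATP, and FGR, a Src family kinase, were near background in MC26, where ENTPD2 lay at 6.02 and 5.16 and FGR at 13.4 and 1.26, against 189 and 268 and 114 and 136 in MCF10A-CT.

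**Figure D3:**
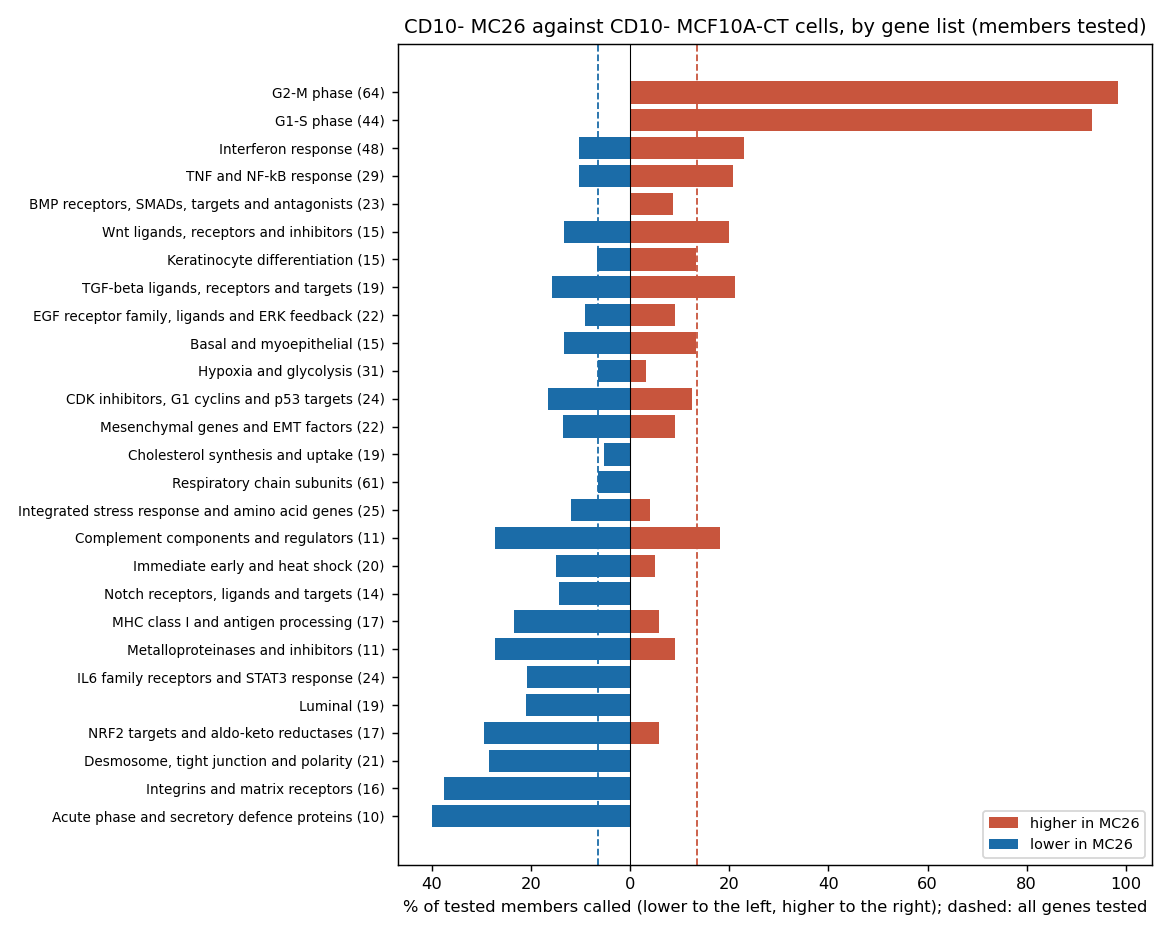
Share of the tested members of each gene list that was called higher (red, to the right) or lower (blue, to the left) in CD10- MC26 than in CD10- MCF10A-CT cells, for lists with 10 or more tested members (number in brackets); dashed lines mark the shares over all genes tested, 13.4% higher and 6.54% lower. The G2-M and G1-S lists reach 98.4% and 93.2% higher, and no other list drawn exceeds 22.9% higher. The ENI10 lists, which share genes with them, are not drawn.

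The same lines had also been arrayed as CD10+ and as unsorted cells, in arrays other than the 4 compared here. These arrays entered the estimate of the spread and the choice of probe sets behind the CD10- calls, and with the 4 CD10- arrays alone 624 genes were higher and 364 lower. Among CD10+ cells 1638 genes differed between the lines (13.5% of genes tested, 973 or 8% higher and 665 or 5.47% lower). Of the 1635 genes higher in CD10- MC26, 1632 were also higher among CD10+ cells, against 55.1% of all genes, and 901 passed the test there. Of the 796 lower genes, 792 were lower, against 44.9% of all genes, and 537 passed. The G2-M median was 1.41 and the G1-S median 2.02 among CD10+ cells. The line difference was larger in CD10- than in CD10+ cells for 61 of 64 G2-M genes, by a median of 0.62, and for 40 of 44 G1-S genes, by a median of 0.30, without passing the test in any single gene. Part of the G2-M genes were chosen into ENI10 by the CD10 difference in MCF10A-CT. Of the 22 outside it, the line difference was larger in CD10- cells for 19, by a median of 0.42. Over all genes the median line difference was 0.13 in CD10- and 0.08 in CD10+ cells. The share of all genes with a larger difference in CD10- cells was not computed, so these counts have no baseline. Genes of a list also share the same arrays and are not separate observations. No gene passed a test of the difference between the CD10- and the CD10+ line differences (limma, 0% called, 83 genes at an unadjusted p under 0.05). Thus no gene was shown to have a line difference that differed between the fractions. The test of that difference had larger errors than the comparison within CD10- cells, and smaller differences between the fractions may have gone undetected.

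Unsorted cells gave another picture. Only 39 genes differed between unsorted MC26 and MCF10A-CT cells (0.321% of genes tested, 24 or 0.197% higher and 15 or 0.123% lower, with 972 at an unadjusted p under 0.05). Of the 1635 genes higher in CD10- MC26, 891 (54.5%) were higher there, against 52.9% of all genes, and of the 796 lower genes 508 (63.8%) were lower there, against 47.1%. The line difference itself differed between CD10- and unsorted cells for 357 genes (2.93%), more positive in CD10- cells for 274 (2.25%) and more negative for 83 (0.682%). This count was 20 without MC1, 40 without CT2, 133 without MC2 and 1147 without CT1, and 2 in a test without moderated variances.

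**Figure D4:**
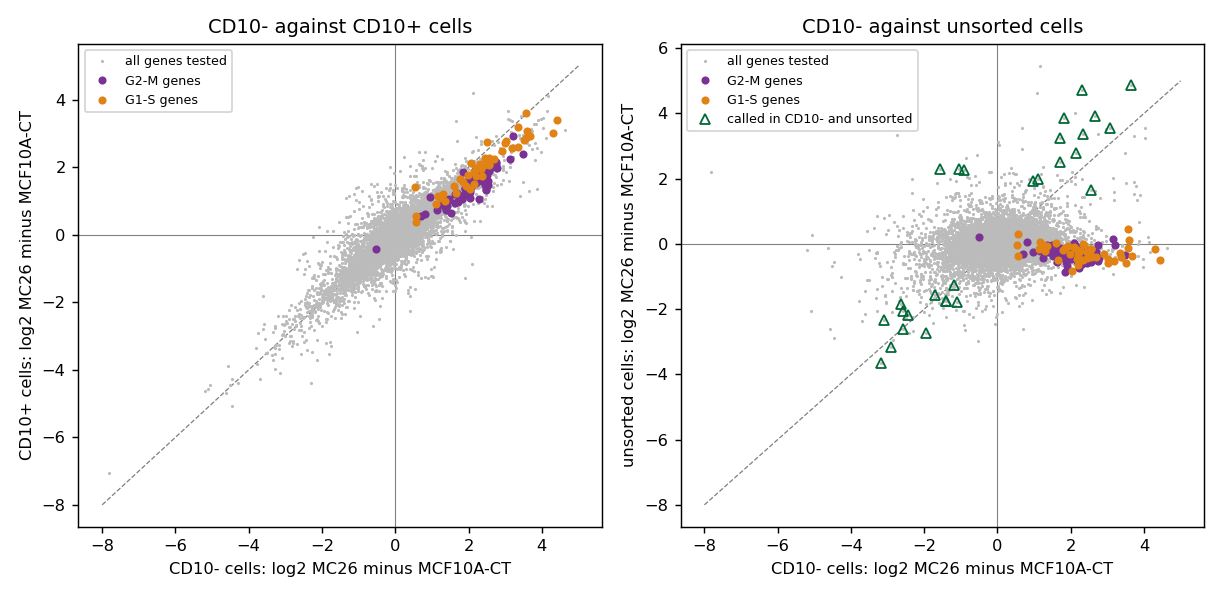
log2 difference between MC26 and MCF10A-CT for each of the 12166 genes tested, in CD10- cells (horizontal) against CD10+ cells (left) or unsorted cells (right); gray points are all genes, purple G2-M genes, orange G1-S genes, open triangles the genes called in both CD10- and unsorted cells, and the dashed line marks equal differences. Cell-division genes (G2-M and G1-S medians 2.07 and 2.33 in CD10- cells) have medians of 1.41 and 2.02 in CD10+ cells, most of them on the side of the dashed line where the CD10- difference is larger, and of -0.28 and -0.24 in unsorted cells.

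Most G2-M genes were part of that contrast. The line difference was larger in CD10- than in unsorted cells for 55 of 64 G2-M genes and 26 of 44 G1-S genes, and smaller for no member that passed the test, with medians of -0.28 and -0.24 between the unsorted lines. These counts stood against 2.25% of all genes and rested on single arrays, with 10 G2-M and 2 G1-S members left without CT2, 2 and 0 without MC1, 38 and 9 without MC2, 55 and 36 without CT1, and none in the test without moderated variances. HMMR stood at 1701 and 1937 in unsorted MCF10A-CT and 1258 and 1786 in unsorted MC26, values that overlapped and that resembled CD10- MC26 (1702 and 1324), whereas CD10- MCF10A-CT lay at 375 and 210.1. Its difference of differences was 2.69 (adjusted p = 0.00638). CDC45 likewise stood at 301 and 301 in unsorted MCF10A-CT and 204 and 363 in unsorted MC26. The mean G2-M level was 9.53 and 9.59 in unsorted MCF10A-CT, 7.84 and 8.05 in CD10+ MCF10A-CT and 7.35 and 7.63 in CD10- MCF10A-CT. The sorted MCF10A-CT arrays thus stood below the unsorted ones of the same line, while MC26 lay at 8.78 and 9.76 unsorted and 9.36 and 9.62 in CD10- cells. Sorted and unsorted cells also differed in their handling, whose part in this was not tested.

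A smaller set of genes differed between the lines in the same direction with and without sorting. Of the 39 genes that differed among unsorted cells, 25 differed the same way in CD10- cells, and 22 of these also in CD10+ cells. These genes were chosen after their values were seen. Those higher in MC26 were STEAP1, LTBP1, GSDMC, PPP2R2C, NRCAM, KRT14, CFI, LCP1, HSD17B2, CNRIP1, SERPINB3 and SAMSN1, and those lower were ALDH3A1, AUTS2, UGT8, P3H2, ST3GAL5, GATM, S100A4, GPM6B, HSPA12A, SEMA3C, BIN1, PXYLP1 and METRN. Beside KRT14, whose lost calls are given above, the CD10- calls were lost for LTBP1 without MC1 (0.0717), GSDMC without CT2 (0.182), MC1 (0.109) or MC2 (0.0528), PPP2R2C without MC1 (0.104), HSD17B2 without CT1 (0.173), MC1 (0.172) or MC2 (0.0534), CNRIP1 without CT1 (0.159) or MC1 (0.183) and SERPINB3 without MC2 (0.0577), and for HSPA12A without CT1 (0.0834), CT2 (0.099), MC1 (0.0672) or MC2 (0.158), SEMA3C without CT2 (0.11), MC1 (0.053) or MC2 (0.0908) and BIN1 without CT2 (0.072) or MC1 (0.0773). LCP1, which bundles actin filaments, had intensities of 91.4 and 82.8 in MCF10A-CT and 952 and 575 in MC26 among CD10- cells and 79.6 and 62.5 against 896 and 773 among unsorted cells. The arrays of the lines lay apart in each case (8.42-fold in CD10- cells, adjusted p = 1.48e-05), and no gene had a smaller p in CD10- cells. SAMSN1 stood at 18.5 and 29.2 in MCF10A-CT and 486 and 188 in MC26 in CD10- cells and at 8.61 and 2.97 against 157 and 206 unsorted. Its unsorted MCF10A-CT arrays lay below background, so that the unsorted log2 difference of 4.87 (adjusted p = 0.000374) depended on the pseudocount and was 3.18 with 16 in place of 1 (adjusted p = 0.00233). STEAP1, a metalloreductase, was 5.92-fold higher in CD10- cells, from 251 and 268 to 1784 and 1329. ALDH3A1 had a log2 difference of -3.18 in CD10-, -3.40 in CD10+ and -3.65 in unsorted cells. ST3GAL5, which makes the ganglioside GM3, had log2 differences of -3.10, -2.97 and -2.32, and UGT8, which makes galactosylceramide, of -1.95, -1.72 and -2.72.

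A few genes ran the opposite way in sorted and unsorted cells. S100A8, S100A9 and CFB were lower in MC26 among CD10- cells and higher among unsorted cells. S100A8 stood at 3303 and 1545 in unsorted MCF10A-CT and 12571 and 9804 in unsorted MC26, against 10164 and 10809 in CD10- MCF10A-CT and 5642 and 4571 in CD10- MC26. The groups did not overlap in either setting, and the difference of differences was -3.34 (adjusted p = 0.00284). For S100A9 and CFB it was -3.19 and -3.88 (adjusted p = 0.00638 and 0.00917). SERPINA3 stood at 445 and 399.7 in unsorted MCF10A-CT and 437 and 318 in unsorted MC26, so that its CD10- difference was not seen there (-0.18, adjusted p = 0.992). SOCS3 was called among unsorted but not CD10- cells, at 14.2 and 0.808 against 188 and 279.6 (log2 difference 5.46, adjusted p = 0.00137), and its difference of differences was -4.30 (adjusted p = 0.0298). The unsorted MCF10A-CT arrays were not above background, and with a pseudocount of 16 these values were 3.45 and -2.47 (adjusted p = 0.000242 and 0.0213). The difference of differences of SOCS3 was no longer called without CT2 (0.131), MC1 (0.105) or MC2 (0.0868), and without moderated variances none of S100A8, S100A9, CFB and SOCS3 passed (lowest adjusted p = 0.083).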

How the data were processed

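RNA of 9 groups (3 lines, each CD10-, CD10+ and unsorted, 2 arrays per group) had been hybridized to Affymetrix HG-U133 Plus 2.0 arrays. The authors deposited 1 table of linear intensity values, which per the labels came from Affymetrix Expression Console with MAS5. All 18 arrays shared a median intensity of 16.7, and upper quartiles ranged from 95.1 to 124. Of 54675 probe sets, 41091 carried 1 gene symbol, 1801 several and 11721 none; 62 controls were left out. The probe set of highest mean stood for a gene, and genes above a mean log2(intensity + 1) of 3.94 were tested (intensity 14.3, called background). limma 3.58.1 (R 4.3.3) was fitted to 9 group means with an intensity trend (9 residual degrees of freedom), checked on simulated data, with Benjamini-Hochberg adjustment over all genes tested. The number of arrays limits the precision, with a median SE of 0.30. The gene lists and the comparison were chosen with earlier results of these data known. Named genes were the 15 largest rises and falls above background, the 5 largest each way with 1 line near background, up to 4 called members of smallest p per list, preset BMP, IL6 and lineage genes, and the 5 of smallest p in each difference of differences. Others were named after their values were seen. Alternatives covered the pseudocount, filters, scaling, arrays fitted, moderation, probe sets, replicate blocks and each array left out. Same-numbered arrays deviated together at a correlation of -0.12.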

Additional observations from a re-analysis of the deposited data

Results flagged for a closer look

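The line difference differed between CD10- and unsorted cells for 357 genes, 274 of them more positive and 83 more negative in CD10- cells, by a test of the difference itself (limma, adjusted p under 0.05). Among the lists this held for 55 G2-M and 26 G1-S members, all more positive, against 2.25% of all genes. These counts fell to 10 and 2 without CT2, 2 and 0 without MC1 and 38 and 9 without MC2, and to 0 without moderated variances. Of the 43 genes listed here, 13 passed without CT2, 6 without MC1, 27 without MC2 and 1 without moderated variances. The values that follow are log2 line differences in CD10- cells minus those in unsorted cells.

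Among genes of DNA replication and its control the values were CDC45 4.45, RRM2 4.04, CDC6 3.48, RAD51AP1 3.92, TYMS 2.71, RFC2 2.33, TK1 2.97, MCM8 2.15 and MYBL2 3.84. Among genes of the spindle, kinetochore and mitotic entry they were SKA1 3.77, ZWINT 3.89, HMMR 2.69, NUF2 2.28, CEP55 2.99, PRC1 2.49, CDC20 2.77, KIF15 2.93, TPX2 2.35, CDC25C 2.07, SHCBP1 3.34 and DEPDC1 2.00. Other genes with a more positive difference in CD10- cells were DKK1 4.45, SCEL 4.75, TMPO-AS1 4.42, ITFG2 3.89, CCN2 3.10, ADAMTS1 2.88, FOSL1 1.96, TGFBR2 1.20 and SFTA1P 3.68. Secreted and defense genes with a more negative difference were CHI3L1 -10.04, S100P -6.10, SERPINA3 -5.02 and SFTPB -1.99, to which the opposite pattern of S100A8, S100A9 and CFB given above belongs. The signaling, epithelial and enzyme genes were SOCS3 -4.30, CLDN7 -1.96, KRT16 -3.90, LEMD1 -5.33, MIR200CHG -4.13, ALOX15B -3.03, LOX -1.96, AKR1C3 -1.73 and CYP1B1 -2.42. CHI3L1 gave the lowest of these values, with intensities of 9.57 and 3.26 in unsorted MCF10A-CT and 39.4 and 23.0 in unsorted MC26, so that part of it lies near background. The unsorted arrays of MC26 differed more from each other than those of MCF10A-CT in the mean G2-M level (8.78 and 9.76 against 9.53 and 9.59), and the part of this in the differences was not tested.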

How the results depend on the processing

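Of the named genes 184 were called, and part of these had been named after their values were seen. Among their 3338 values under 20 alternatives, 2835 kept direction and call, 500 kept the direction but lost the call and 3 reversed. Both direction and call were kept in every alternative by 73 genes. The numbers of genes higher and lower in MC26 were 1635 and 796. They became 1363 and 1368 after quantile normalization, 1485 and 1310 after centering each array, 624 and 364 with the 4 CD10- arrays alone, 1033 and 495 without moderated variances, 1066 and 575 with a 2-fold minimum, and 1261 and 357 in the brighter part of the genes. The count of genes whose line difference differed between CD10- and unsorted cells, 357, became 590 after quantile normalization, 2 without moderation, 177 without the intensity trend, 243 without the filter on low values and 485 after centering. The 0 genes found between CD10- and CD10+ line differences stayed 0 under each alternative run. With one array left out, the counts ranged from 395 to 2081 higher, 150 to 929 lower and 20 to 1147 for the unsorted contrast. Replicate numbers recur across groups, but same-numbered arrays did not deviate together, so the pairing rests on a number alone. With the replicate number as a block the counts were 1667 and 823, and within the 4 CD10- arrays 700 and 393. Crossing the pairing there, chosen after seeing the data, gave 1059 and 674. Signs turned for ID2 (-0.17 quantile, -0.12 centered), STAT3 (-0.11 quantile, -0.058 centered, -0.28 as the mean of probe sets), BMPR2 (0.10) and VIM (0.18) as the mean of probe sets, and, without probe sets that may bind related transcripts, CD59 (-0.87), TKT (0.58) and COX5B (0.043). Leaving out one array gave ranges that crossed 0 for MME (-0.63 to 1.33), BMPR1B (-0.48 to 0.017), BMPR2 (-0.48 to 0.051), ID2 (-0.95 to 1.02), STAT3 (-0.030 to 0.22) and LOC220077 (-0.39 to 1.22), none of which passed the test. The causes of these changes were not tested. With 2 arrays per group the precision is low, and values near background have no reliable order.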

Other observations

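Some gene groups were put together after their values were seen and carry no weight as lists. Genes that resting or nutrient-deprived cells tend to raise were lower in CD10- MC26, with 12 of 18 tested members called lower and none higher. The share was 66.7%, against 6.54% of all genes, and the median was -1.38, against -1.32 in CD10+ and 0.04 in unsorted cells. FOXO3, a transcription factor active when growth factors are scarce, lay at 1305 and 1817 in MCF10A-CT and 681 and 665 in MC26 (log2 difference -1.19, SE 0.21, adjusted p = 0.00202). YPEL2, YPEL5 and the nuclear receptor coactivator PNRC1 were 8.13-fold, 3.53-fold and 3.11-fold lower, with calls that held without any one array. TXNIP, an inhibitor of glucose uptake, lay at 1942 and 6994 in MCF10A-CT and 815 and 715 in MC26, and its call was lost without CT2 (0.223), MC1 (0.0758) or MC2 (0.0828).

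Of 12 tested genes that glucocorticoids induce in many cell types, 5 were lower and 1 higher (median -1.15), although hydrocortisone was in all media. These shares of 41.7% and 8.33% stood against 6.54% and 13.4% of all genes. The 5 lower genes took in CDKN1C and ERRFI1, both described above, whose calls held without any one array. TSC22D3 lay at 993 and 5153 in MCF10A-CT and 192 and 294 in MC26, PDK4 at 168 and 800.0 in MCF10A-CT and 26.8 and 24.8 in MC26 and ZBTB16 at 352 and 1083 in MCF10A-CT and 46.2 and 145 in MC26. In each the arrays of the lines were apart, but the MCF10A-CT arrays differed from each other, and without CT2 the adjusted p was 0.0889, 0.0659 and 0.082. FKBP5, also a glucocorticoid target, stood at 6206 and 5966 in MCF10A-CT and 3943 and 4529.6 in MC26 (adjusted p = 0.0971).

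Histone genes leaned lower, with 2 of 24 tested members higher and 10 lower (median -1.32). These shares of 8.33% and 41.7% stood against 13.4% and 6.54% of all genes. Most of the histone genes may share probes with close copies. H2AX and H2AZ1, variant histones of H2A, were 3.86-fold and 1.80-fold higher, the H2AZ1 call being lost without CT2 (adjusted p = 0.053). H2AC6 and H2BC5 were lower, at 363 and 666 in MCF10A-CT and 45.3 and 85.2 in MC26 and 357 and 643 in MCF10A-CT and 68.8 and 114 in MC26 (adjusted p = 0.00164 and 0.0015), with calls that held without any one array.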
